A study of Homo sapiens with 101 samples.

Results

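The comparison described here sets 6 arrays of HT1080 cells given GAD at 2 mM directly against 6 arrays of the same cells given tBHQ at 200 µM, which makes 12 of the 101 arrays of the series, and no untreated control enters it. The arrays of each group were taken by their titles alone. HT1080 is a human fibrosarcoma line that carries an activated NRAS and intact p53. GAD is a code that the labels do not spell out, and tBHQ is tert-butylhydroquinone. The series tested 11 compounds, each at 1 dose that its design text gives as raising total p53 about 1.5-fold. Stocks of the compounds were made in DMSO, so cells given GAD or tBHQ received that vehicle too, and 6 further arrays labelled DMSO_pooled, which were normalized together with GAD and tBHQ, are quoted only to place the levels. The labels neither explain the pooling nor tie these arrays to GAD or tBHQ as their control, exposure times were not given in the sources used here, and the doses of GAD and tBHQ differ, so every difference below is one between these treatments as given. Nothing says that the arrays of 1 group came from separate cultures, so each p-value here reflects sample-to-sample spread that may be only technical.

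Both compounds are studied here against the background of a few stress pathways. NRF2 is a transcription factor that is held down by KEAP1 and released when oxidants or electrophiles modify KEAP1's cysteines; it then switches on genes for glutathione synthesis, NADPH supply, quinone reduction and heme breakdown, and tBHQ is a standard inducer of it. The transcription factor p53 is stabilized after DNA damage and other stress and switches on genes for cell cycle arrest, apoptosis and repair, among them its own inhibitor MDM2. ATF4 and CHOP carry the integrated stress response to amino acid shortage and protein folding stress, and heat shock factors and the metal sensor MTF1 answer damaged proteins and free zinc.

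Signal was measured on Affymetrix arrays and is given as the authors' log2 value, so a difference of 1 is 2-fold. Each gene is represented by its brightest probe set, and 11496 genes with a mean of 4 or more in at least 1 of the 17 groups were tested in limma. A gene is called where its Benjamini-Hochberg adjusted p is under 0.05 and the difference is at least 1.5-fold. A group mean under 4 is taken as not well above background, and a fold against it is given as at least the fold over 4. Pairs of arrays of the same group differed over these genes with an SD of 0.19 to 0.40 in GAD and 0.16 to 0.50 in tBHQ, and a GAD array differed from a tBHQ array with an SD of 0.56 to 0.83. Of 7 mesenchymal markers 6 lay at 4 or more in GAD, tBHQ and DMSO_pooled cells alike, and THY1 did not. Their summed log2 signal was 60.1 to 61.7 in GAD arrays and 62.2 to 64.0 in tBHQ arrays. None of 4 epithelial, 4 leukocyte or 3 endothelial markers reached 4 in any of these groups. The difference between the 3′ and 5′ probe sets of ACTB, a sign of RNA quality, was 1.35 ± 0.16 in GAD and 1.05 ± 0.16 in tBHQ arrays (SD, n = 6 each, exact permutation p = 0.00433, two-sided), and its part in the results was not tested. That of GAPDH was -0.023 ± 0.028 in GAD and -0.046 ± 0.032 in tBHQ arrays (SD, n = 6 each, exact permutation p = 0.223, two-sided). The array labelled tBHQ replicate 1 stood apart from its group most often, in 10 of 26 values that lay far from the rest of their group, and without it 3165 genes were called.

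In the direct comparison 2963 of 11496 genes were called (25.8%), 1169 of them higher in GAD cells (10.2%) and 1794 lower in GAD cells (15.6%). Every GAD array lay above every tBHQ array for 2166 genes (18.8%) and below for 2189 (19.0%), and the median difference over all genes was 0.00. For scale, set against DMSO_pooled, GAD had 1281 genes called higher (11.1%) and 1730 lower (15.0%), and tBHQ had 620 higher (5.39%) and 510 lower (4.44%). Those comparisons share the DMSO_pooled arrays, and their values are only given side by side below. The split of the direct comparison depends on the scaling of the arrays. As deposited 39.5% of the called genes were higher in GAD, and after quantile normalization 48.5%. When the median over all 19774 genes, tested or not, was made equal for each array, the share was 58.3%. That last scaling moves the median difference of the tested genes by 0.147.

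**Figure D1:**
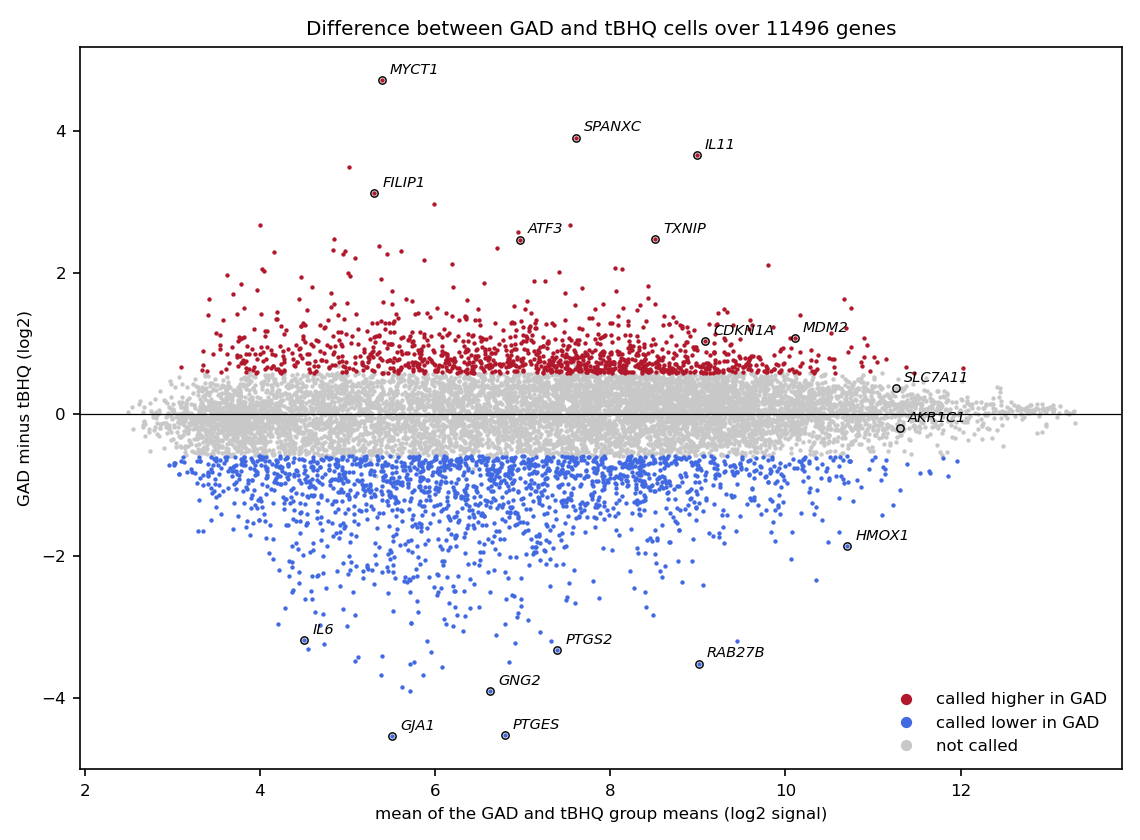
Each point is 1 of the 11496 genes tested, with the mean of the GAD and tBHQ group means on the x axis (log2 signal) and GAD minus tBHQ on the y axis (log2). Red points are the 1169 genes called higher in GAD, blue points the 1794 called lower and grey points the rest. MYCT1 lies highest at 4.72, and GJA1 and PTGES lie lowest at -4.54 and -4.52.

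The genes with the largest differences were in part genes that one treatment raised and the other left near background. MYCT1, a nuclear protein first described as a MYC target, had log2 signals of 6.97 to 9.04 (median 7.53) in GAD cells, 2.70 to 4.20 (median 2.84) in tBHQ cells and 2.72 to 3.17 (median 2.99) in DMSO_pooled cells. Every GAD array was well above background and far above all tBHQ and DMSO_pooled arrays, at least 13.4-fold above tBHQ (difference 4.72 ± 0.34, SE, n = 6 each, limma adjusted p = 1.46e-07). FILIP1, which binds filamin A, lay at 6.79 to 6.99 (median 6.86) in GAD cells, 3.51 to 3.91 (median 3.82) in tBHQ cells and 3.40 to 3.85 (median 3.75) in DMSO_pooled cells. The arrays of each group lay within a narrow range, and GAD stood at least 7.29-fold above tBHQ (adjusted p = 2.78e-11). The antisense RNA LURAP1L-AS1 had the same shape, at 6.76 in GAD, 3.27 in tBHQ and 3.25 in DMSO_pooled cells, at least 6.78-fold above tBHQ. SPANXC, of a family of near-identical sperm proteins whose probe sets may read each other, differed by 3.90 ± 0.20, with 9.26 to 9.88 (median 9.54) in GAD cells and 5.06 to 6.28 (median 5.70) in tBHQ cells.

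The cytokine IL11, of the IL-6 family, was bright in GAD cells. Its signals were 10.30 to 11.49 (median 10.79) in GAD cells, 6.66 to 7.67 (median 7.17) in tBHQ cells and 7.12 to 8.08 (median 7.68) in DMSO_pooled cells. Every GAD array lay above every tBHQ and DMSO_pooled array, 12.6-fold above tBHQ (difference 3.66 ± 0.20, adjusted p = 1.97e-08). MAOA, which oxidizes monoamines in mitochondria, differed by 2.34 ± 0.11 and NECTIN4, an adhesion protein, by 2.58 ± 0.18. ANKRD1, an ankyrin repeat protein induced by YAP, averaged 8.88 ± 0.45 in GAD cells, 6.21 ± 0.68 in tBHQ cells and 7.74 ± 0.47 in DMSO_pooled cells (SD, n = 6 each), with GAD above DMSO_pooled and tBHQ below it. The keratin-associated KRTAP2-3 averaged 7.47 ± 0.39 in GAD cells, 4.50 ± 0.71 in tBHQ cells and 7.17 ± 0.75 in DMSO_pooled cells, so that the GAD level was near that of the DMSO_pooled arrays and the tBHQ level was the one that stood apart. The other members among the 14 largest were INHBE, an activin subunit induced in stress (at least 2.53-fold), CSTA, a cysteine protease inhibitor (at least 4.23-fold), the endocytic adaptor STON2 (at least 3.97-fold), DLGAP1-AS6 (difference 2.37 ± 0.17) and ATF3, described below.

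Among the genes lower in GAD cells, GJA1, the gap junction protein connexin 43, lay at 2.60 to 3.57 (median 3.42) in GAD cells, 7.48 to 8.15 (median 7.77) in tBHQ cells and 4.63 to 5.92 (median 5.12) in DMSO_pooled cells. No 2 of these groups overlapped, and GAD and tBHQ lay on opposite sides of DMSO_pooled, at least 13.7-fold apart (difference -4.54 ± 0.17, adjusted p = 1.12e-09). ATP6V0D2, a subunit of the vesicular proton pump, had the same order, with means of 3.70 in GAD, 7.54 in tBHQ and 4.93 in DMSO_pooled cells and at least 11.6-fold between GAD and tBHQ. PTGES, which makes prostaglandin E2, lay at 2.54 to 5.87 (median 4.76) in GAD cells, against 6.31 to 10.02 (median 9.47) in tBHQ cells. Its spread was wide in both groups, and the lowest value of each was replicate 1 (difference -4.52 ± 0.65, adjusted p = 5.27e-05). The lack of overlap of GAD and tBHQ was a condition of being named here. TENM4, a teneurin adhesion protein, averaged 3.55 ± 0.68 in GAD cells, 7.22 ± 0.21 in tBHQ cells and 6.98 ± 0.21 in DMSO_pooled cells. There the GAD level was the one that stood apart. The same held for the G protein subunit GNG2 (difference -3.90 ± 0.37), the pseudokinase TRIB2 (-3.50 ± 0.28), the RNA-binding protein BICC1 (-3.50 ± 0.29), the kinase RPS6KA2 (at least 7.11-fold lower) and the SNARE protein SNAP25 (at least 7.13-fold lower), whose tBHQ means were within 0.25 of DMSO_pooled. A second probe set of GNG2 differed by -0.57, under 1.5-fold. PLCB1, a phospholipase C, was at least 12.7-fold lower in GAD cells, and the kinase PRKG1 at least 11.2-fold. TGFBR3, the TGF-beta co-receptor betaglycan, differed by -3.68 ± 0.31, the carbonic anhydrase CA12 by -3.56 ± 0.32 and the secretory GTPase RAB27B by -3.52 ± 0.31.

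Among the NRF2 target lists the heme and iron branch held the most genes called between GAD and tBHQ. In the glutathione list 1 of 9 tested genes was called higher in GAD cells and 2 lower. None of 5 thioredoxin genes was called in either direction. In the NADPH list 1 of 5 genes was lower and none higher, in the quinone and carbonyl list 2 of 12 were lower and none higher, and in the heme and iron list 5 of 9 were lower and none higher. Of all tested genes 15.6% were called lower and 10.2% higher, and only the heme and iron list stood far above the share called lower. The median differences were -0.26 for glutathione, -0.48 for NADPH, 0.01 for thioredoxin, -0.23 for quinone and carbonyl reduction and -0.70 for heme and iron, beside 0.00 for all genes. The heme and iron median was -0.38 with group means under 4 set to 4. GAD and tBHQ were picked as strong NRF2 inducers, so a rise of NRF2 targets over DMSO_pooled in both was known beforehand. Against DMSO_pooled the glutathione median was 0.94 in GAD and 1.31 in tBHQ, and that of the quinone and carbonyl list 1.37 in GAD and 1.38 in tBHQ. The medians were 0.33 in GAD and 0.74 in tBHQ for NADPH, 0.31 in GAD and 0.30 in tBHQ for thioredoxin, and 0.26 in GAD and 0.68 in tBHQ for heme and iron, where 1 of 9 genes was called higher than DMSO_pooled in GAD and 7 of 9 in tBHQ.

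HMOX1, which breaks down heme to biliverdin, iron and carbon monoxide, showed the largest NRF2-list difference. It had log2 signals of 9.16 to 10.27 (median 9.77) in GAD cells, 11.41 to 11.95 (median 11.62) in tBHQ cells and 6.75 to 7.36 (median 7.19) in DMSO_pooled cells. Both treatments lay above every DMSO_pooled array, and every GAD array lay below every tBHQ array, at 0.276 times the tBHQ level (difference -1.86 ± 0.15, adjusted p = 3.91e-07). Genes for the next step were lower in GAD cells too: BLVRB, a biliverdin reductase, differed by -1.42 ± 0.09 and its partner BLVRA by -0.96 ± 0.08. BLVRB averaged 7.63 ± 0.20 in GAD cells, 9.05 ± 0.13 in tBHQ cells and 7.41 ± 0.07 in DMSO_pooled cells. The porphyrin transporter ABCB6 differed by -1.19 ± 0.14, with a GAD mean of 6.38 close to the 6.51 of DMSO_pooled. SLC40A1, the iron exporter, was called lower too, but both means were under 4.

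Unlike HMOX1, other NRF2 markers such as GCLM and NQO1 differed by under 1.5-fold between the treatments. Levels of GCLM, NQO1, SLC7A11 and AKR1C1 were well above DMSO_pooled in both, as was known when the treatments were picked as strong NRF2 inducers. GCLM, the modifier subunit of glutamate-cysteine ligase, had 10.84 to 11.11 (median 10.91) in GAD cells, 11.06 to 11.52 (median 11.22) in tBHQ cells and 9.34 to 10.02 (median 9.61) in DMSO_pooled cells. GAD and tBHQ arrays overlapped slightly and both lay above every DMSO_pooled array (difference -0.32 ± 0.08, adjusted p = 0.00494, under 1.5-fold). GCLC, the catalytic subunit, differed by -0.26 ± 0.12 (adjusted p = 0.0894). NQO1, which reduces quinones, averaged 11.16 ± 0.10 in GAD cells, 11.09 ± 0.14 in tBHQ cells and 9.78 ± 0.13 in DMSO_pooled cells. SRXN1, which repairs oxidized peroxiredoxins, differed by 0.09 ± 0.06 and TXNRD1, thioredoxin reductase, by -0.22 ± 0.07. SLC7A11, the cystine importer, ran the other way, with 11.19 to 11.68 (median 11.46) in GAD cells, 10.85 to 11.27 (median 11.08) in tBHQ cells and 7.63 to 8.70 (median 8.26) in DMSO_pooled cells. Its treated groups overlapped and differed by 0.37 ± 0.10 (adjusted p = 0.00687), under 1.5-fold. The aldo-keto reductase AKR1C1 lay farther above DMSO_pooled than any other gene of these lists, 6.02 in GAD and 6.22 in tBHQ, with a direct difference of -0.20 ± 0.18 (adjusted p = 0.367). Its probe sets may read AKR1C2, a near-identical relative, and 1 of its other probe sets differed by 0.80 in the opposite direction (adjusted p = 0.0104). AKR1B10 differed by -0.39 ± 0.24 and was not called (adjusted p = 0.171).

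Some enzymes and pumps of these lists did differ by the call. ME1, malic enzyme, which makes cytosolic NADPH, had 9.99 to 10.28 (median 10.24) in GAD cells and 10.93 to 11.34 (median 11.15) in tBHQ cells. The groups did not overlap, and the GAD level was 0.512 times that of tBHQ (difference -0.97 ± 0.08, adjusted p = 3.72e-07). NQO2, the paralog of NQO1 that uses another hydride donor, averaged 7.72 ± 0.19 in GAD cells, 8.96 ± 0.11 in tBHQ cells and 7.75 ± 0.15 in DMSO_pooled cells. All tBHQ arrays lay above every DMSO_pooled array, and GAD arrays overlapped them. The efflux pumps ABCC4 (-1.15 ± 0.06) and ABCC3 (-1.53 ± 0.25) were lower in GAD cells, and 1 of 3 probe sets of ABCC3 showed no fall (0.16, adjusted p = 0.248). GGT1, which splits extracellular glutathione, was the 1 gene of the glutathione list called higher in GAD cells, with 4.61 to 4.91 (median 4.80) in GAD cells and 3.79 to 4.21 (median 3.97) in tBHQ cells, at least 1.7-fold. Among 10 regulators of the pathway (median 0.04) only TRIM16, an E3 ligase linked to NRF2 and p62, was called, lower in GAD cells at -0.63, and not without tBHQ replicate 3 (-0.58). NFE2L2, which encodes NRF2, differed by 0.03 ± 0.07 and KEAP1 by 0.06 ± 0.06.

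The promoters of GCLM and ME1 are shown because both hold the core of the antioxidant response element that NRF2 binds, spelled TGACNNNGC on either strand, while GCLM was near equal in GAD and tBHQ cells and ME1 was lower in GAD cells. Each line gives the 250 bases before the RefSeq transcription start on GRCh38.p14, with the match in capitals. The GCLM window is chr1:93909431-93909680, minus strand, and the ME1 window chr6:83431052-83431301, minus strand.
GCLM: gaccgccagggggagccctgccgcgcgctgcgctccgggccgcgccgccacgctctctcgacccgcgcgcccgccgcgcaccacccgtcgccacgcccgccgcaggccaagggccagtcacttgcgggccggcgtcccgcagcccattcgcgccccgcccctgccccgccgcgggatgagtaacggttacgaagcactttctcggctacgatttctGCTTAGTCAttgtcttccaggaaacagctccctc
ME1: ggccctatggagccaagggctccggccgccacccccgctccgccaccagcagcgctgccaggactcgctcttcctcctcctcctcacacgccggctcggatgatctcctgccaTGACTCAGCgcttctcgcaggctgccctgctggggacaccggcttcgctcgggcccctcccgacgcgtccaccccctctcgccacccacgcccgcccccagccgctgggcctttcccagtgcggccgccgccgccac
The match begins at position -34 from the start in GCLM, on the opposite strand, and at position -137 in ME1. Over the window that adds the first 50 bases of the transcript, 15.2% of 9494 promoters of tested genes held this core, against 15.7% of 939 promoters of genes called higher in GAD and 13.6% of 1477 promoters of genes called lower. A match in these letters is a description and not a bound site.

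**Figure D2:**
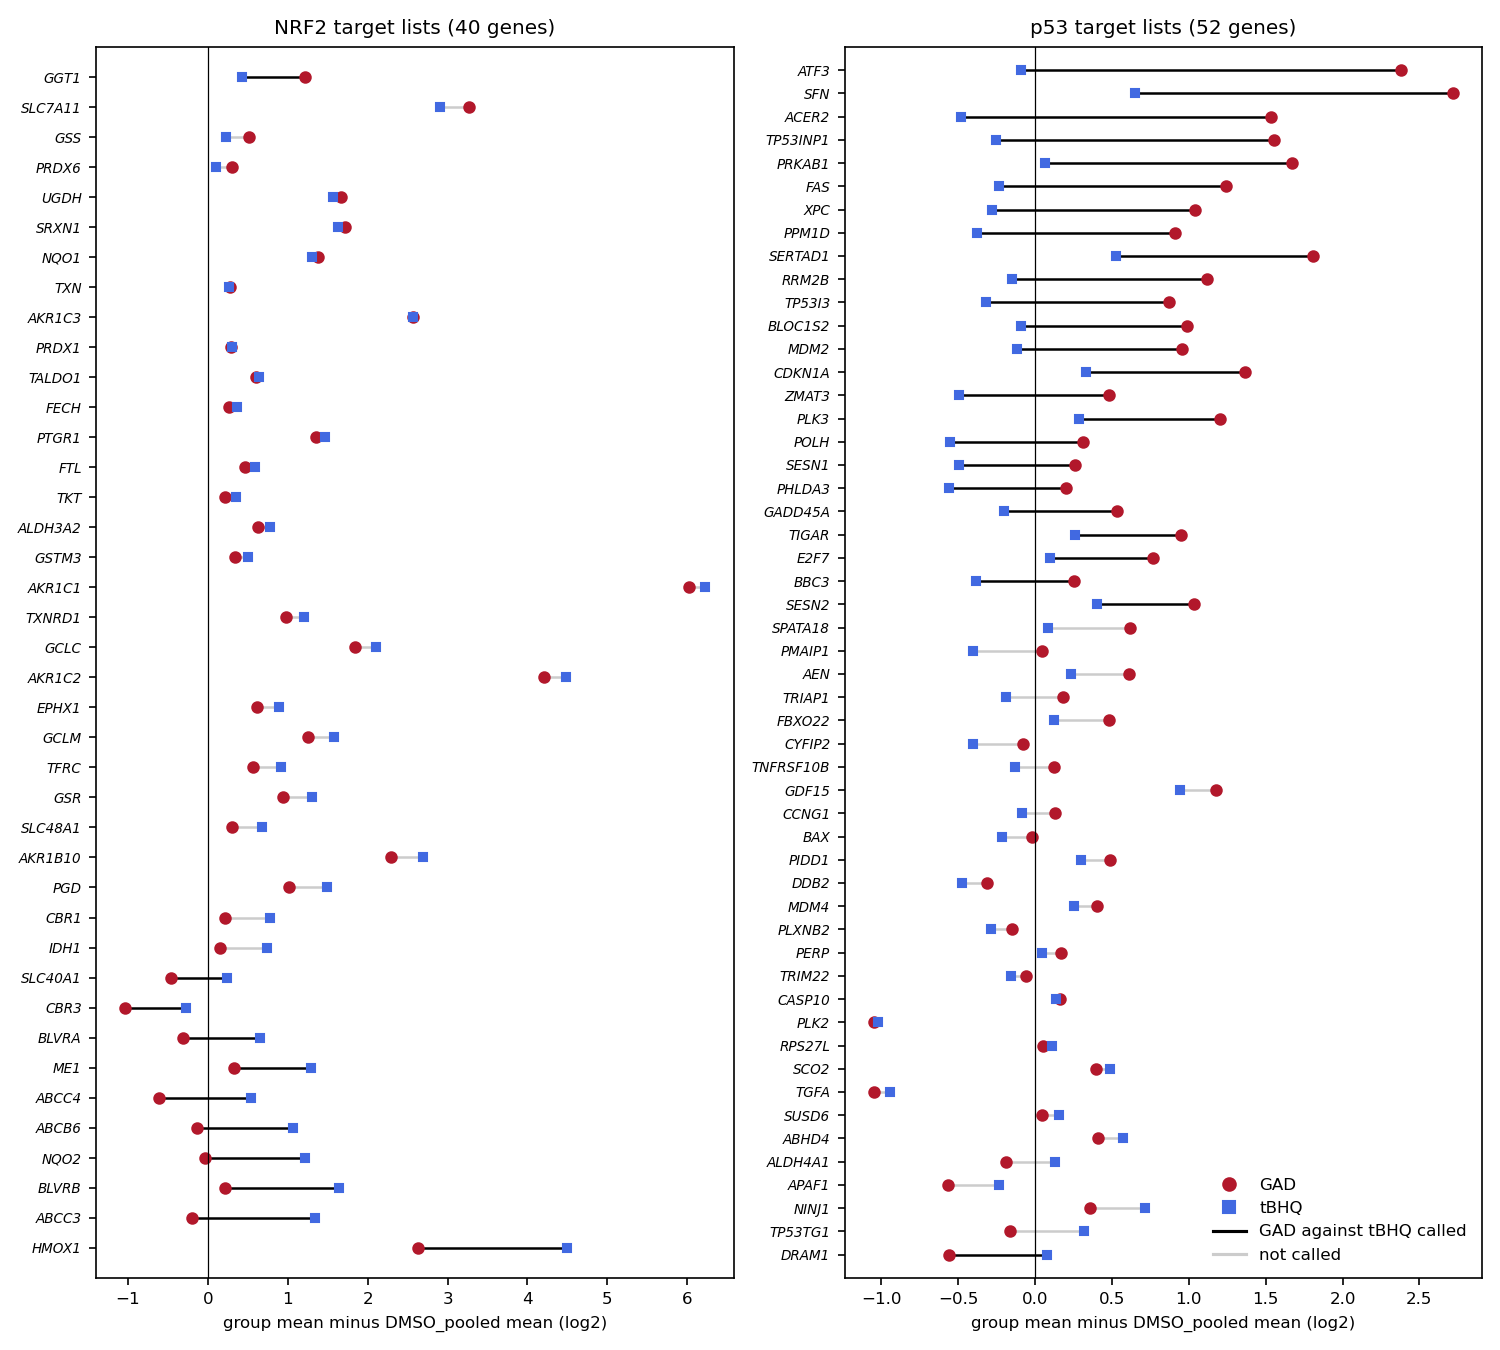
Group mean minus DMSO_pooled mean (log2, x axis) for the 40 tested genes of the NRF2 target lists (left) and the 52 of the p53 target lists (right), with GAD as red circles and tBHQ as blue squares, and a black line where GAD and tBHQ differ by the call. GAD and tBHQ points lie close together for most NRF2 targets and apart for HMOX1, BLVRB and NQO2, while among p53 targets the GAD point lies to the right for every called gene but DRAM1.

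Among the p53 targets that were called the direction was nearly uniform. In the order of the lists below, 7, 7, 10 and 3 tested members were not called. GAD and tBHQ were picked as strong NRF2 inducers that differ in p53 targets, so a difference there was known beforehand. In the list of arrest and feedback genes 11 of 18 tested members were called higher in GAD cells and none lower, with a median difference of 0.76. In the apoptosis list 3 of 10 were higher and none lower (median 0.19), and in the list of repair and metabolism 6 of 17 were higher and 1 was lower (median 0.13). Of 7 genes shared by p53 and the ATF4 or CHOP branch 4 were higher and none lower (median 0.63). The shares of all tested genes were 10.2% higher and 15.6% lower. Against DMSO_pooled the arrest and feedback median was 0.48 in GAD and -0.10 in tBHQ. There 8 genes were called higher and 1 lower in GAD, and none higher and 1 lower in tBHQ. BTG2 of that list was not analysed here.

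CDKN1A, the p21 inhibitor of cyclin-dependent kinases, had 9.52 to 9.70 (median 9.61) in GAD cells, 8.40 to 8.71 (median 8.60) in tBHQ cells and 8.02 to 8.41 (median 8.25) in DMSO_pooled cells. No GAD array overlapped the others, while tBHQ and DMSO_pooled arrays overlapped slightly (2.04-fold over tBHQ, difference 1.03 ± 0.07, adjusted p = 1.01e-07). Averaged with a dim second probe set the difference was 0.53, under 1.5-fold. MDM2, the ligase that degrades p53, had 10.41 to 10.88 (median 10.65) in GAD cells, 9.43 to 9.70 (median 9.56) in tBHQ cells and 9.33 to 10.03 (median 9.69) in DMSO_pooled cells. GAD arrays lay above all DMSO_pooled arrays and tBHQ arrays within their range (difference 1.07 ± 0.08, adjusted p = 1.87e-07), and all 7 probe sets of MDM2 that were tested were called the same way. PPM1D, the phosphatase that switches p53 off again, differed by 1.29 ± 0.09. TP53INP1, a cofactor in p53-dependent death, differed by 1.81 ± 0.10 and SFN, the arrest protein 14-3-3 sigma, by 2.07 ± 0.23.

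The death receptor FAS led the apoptosis genes. Its signals were 8.91 to 9.21 (median 9.01) in GAD cells, 7.22 to 8.11 (median 7.43) in tBHQ cells and 7.37 to 8.65 (median 7.52) in DMSO_pooled cells. GAD arrays lay above all others, 2.78-fold over tBHQ (difference 1.48 ± 0.15, adjusted p = 2.64e-06). TP53I3, a quinone oxidoreductase, differed by 1.19 ± 0.12 and BLOC1S2 by 1.08 ± 0.11. In the repair and metabolism list ACER2, a ceramidase, was at least 2.07-fold higher in GAD cells, PRKAB1, a subunit of AMP-activated kinase, differed by 1.61 ± 0.10, XPC, which senses damaged DNA, by 1.32 ± 0.12, RRM2B, the p53-induced ribonucleotide reductase subunit, by 1.27 ± 0.07, and the translesion polymerase POLH by 0.87 ± 0.10. DRAM1, an autophagy gene, was the 1 member called lower, at -0.64 ± 0.07. DDB2, the other damage sensor and a standard p53 target, had 8.03 to 8.47 (median 8.38) in GAD cells, 7.85 to 8.44 (median 8.22) in tBHQ cells and 8.47 to 8.82 (median 8.67) in DMSO_pooled cells. Both treated groups lay at or below the lowest DMSO_pooled array and overlapped each other (difference 0.16 ± 0.11, adjusted p = 0.198). GDF15, a secreted stress factor, lay above DMSO_pooled in both, by 1.18 in GAD and 0.94 in tBHQ, and its direct difference of 0.23 ± 0.14 was not called.

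The integrated stress response did not move as a block. ATF3, a factor downstream of both p53 and ATF4, had 7.84 to 8.62 (median 8.18) in GAD cells, 5.39 to 6.17 (median 5.61) in tBHQ cells and 5.19 to 6.42 (median 5.85) in DMSO_pooled cells. GAD arrays lay above all others and tBHQ arrays within the DMSO_pooled range, with GAD 5.52-fold over tBHQ (difference 2.47 ± 0.16, adjusted p = 7.86e-08). DDIT3, which encodes CHOP, had 7.27 to 8.16 (median 7.74) in GAD cells, 7.15 to 8.51 (median 7.95) in tBHQ cells and 5.96 to 7.37 (median 6.83) in DMSO_pooled cells, and TRIB3, its target, differed by -0.21 ± 0.14. GAD and tBHQ arrays overlapped for both genes, and neither gene was called. In the CHOP list as a whole 4 of 15 genes were higher in GAD cells and 3 lower (median 0.13), beside 10.2% and 15.6% of all tested genes. With probe sets averaged 2 were higher and 3 lower (median -0.10). NUPR1, a small chromatin protein of stressed cells, was at least 4.22-fold higher, while VLDLR (-1.21 ± 0.12), CEBPB (-0.84 ± 0.12) and DDIT4 (-0.66 ± 0.21), an inhibitor of mTORC1, were lower. In the list of amino acid and one-carbon synthesis 4 of 12 were higher and 2 lower (median 0.43), and 2 were higher with probe sets averaged. None of 9 amino acid transporters was called in either direction, although SLC43A1 (-0.58 ± 0.09) and the glutamine transporter SLC38A1 (0.55 ± 0.11) lay just under 1.5-fold. Without tBHQ replicate 1 these 2 genes differed by -0.65 and 0.61 and were called.

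ASNS, asparagine synthetase, had 11.50 to 11.60 (median 11.54) in GAD cells, 10.34 to 11.13 (median 10.85) in tBHQ cells and 9.43 to 10.82 (median 10.10) in DMSO_pooled cells. The GAD arrays lay within a narrow range beside the wide one of DMSO_pooled, and GAD and tBHQ did not overlap (difference 0.77 ± 0.13, adjusted p = 2.14e-04), although the call was lost in 1 fit of all 17 groups (adjusted p = 0.0711) and when its probe sets were averaged (0.41). ALDH1L2, a mitochondrial folate enzyme, differed by 0.84 ± 0.13, and 0.33 with its probe sets averaged. CTH, which makes cysteine from cystathionine, was higher than DMSO_pooled in both, by 1.02 in GAD and 1.78 in tBHQ, and lower in GAD than in tBHQ, at -0.76 ± 0.19. Among 17 tRNA synthetases (median 0.13) WARS1 (1.00 ± 0.11) and SARS1 (0.71 ± 0.09) were higher and AARS1 (-1.27 ± 0.11) lower, beside 10.2% and 15.6% of all tested genes. The ASNS promoter is shown because it holds a match in letters to the C/EBP-ATF element that ATF4 binds, spelled TGATGNAA. Such a match was held on either strand by 1.78% of all 9494 promoters. The window is chr7:97872409-97872658, minus strand, and the match, in capitals, begins at position -68.
ASNS: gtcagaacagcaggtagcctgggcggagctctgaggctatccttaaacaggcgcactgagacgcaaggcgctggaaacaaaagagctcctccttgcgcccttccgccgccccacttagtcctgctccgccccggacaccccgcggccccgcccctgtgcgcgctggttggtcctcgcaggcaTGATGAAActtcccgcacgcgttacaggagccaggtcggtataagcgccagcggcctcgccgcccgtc
Of the promoters of genes called higher in GAD 2.56% held the element, and of those called lower 2.3%.

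Heat shock and metallothionein genes were called in 1 direction. Of 21 heat shock proteins and co-chaperones 5 were called higher in GAD cells and none lower (median 0.24), beside 10.2% and 15.6% of all tested genes. The count called higher was 3 without GAD replicate 6 and 3 without tBHQ replicate 3. HSPA1A, the inducible HSP70, whose probe sets may read its near-identical copy HSPA1B, had 10.33 to 11.18 (median 10.83) in GAD cells, 9.62 to 10.09 (median 9.82) in tBHQ cells and 8.96 to 10.11 (median 9.45) in DMSO_pooled cells. No GAD array overlapped the tBHQ arrays (difference 0.90 ± 0.14, adjusted p = 7.94e-05). Its cofactor DNAJB1 differed by 0.38 ± 0.08, under 1.5-fold. In the endoplasmic reticulum (median -0.15) none of 19 chaperones was higher and 1 was lower, SDF2L1 (-1.29 ± 0.13), and HSPA5, the reticulum's HSP70, averaged 11.65 ± 0.10 in GAD cells, 11.91 ± 0.14 in tBHQ cells and 11.86 ± 0.12 in DMSO_pooled cells. Of 31 proteasome genes 1 was called higher, PSMD2 (0.74 ± 0.11), and none lower (median 0.04).

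Metallothioneins are small proteins that bind zinc and copper. Of 9 genes in the list of metallothioneins and zinc export 7 had a probe set that names 1 gene, and 6 passed the filter on low values. The 5 metallothioneins among these were called higher in GAD cells, while the zinc exporter SLC30A1 was not (-0.09 ± 0.13). MT1X had 10.84 to 11.35 (median 11.08) in GAD cells, 9.68 to 10.34 (median 9.91) in tBHQ cells and 10.16 to 10.51 (median 10.38) in DMSO_pooled cells. GAD arrays lay above the DMSO_pooled range and tBHQ arrays mostly below it (difference 1.15 ± 0.13, adjusted p = 4.90e-06). MT2A differed by 0.66 ± 0.12, MT1F by 1.27 ± 0.17, MT1G by 0.91 ± 0.10 and MT1E by 1.40 ± 0.26. These genes are near-identical copies, so their probe sets may read each other, and MT1G was under 1.5-fold (0.48) when its probe sets were averaged. The list median of 1.03 compares with medians against DMSO_pooled of 0.50 in GAD and -0.40 in tBHQ. The MT1X promoter is shown because it holds 2 copies of the letters TGCGCNC, searched on either strand. They spell the metal response element that MTF1 binds, and a match in letters is not a bound site. The window is chr16:56682220-56682469, plus strand, and the copies, in capitals, begin at positions -150 and -53.
MT1X: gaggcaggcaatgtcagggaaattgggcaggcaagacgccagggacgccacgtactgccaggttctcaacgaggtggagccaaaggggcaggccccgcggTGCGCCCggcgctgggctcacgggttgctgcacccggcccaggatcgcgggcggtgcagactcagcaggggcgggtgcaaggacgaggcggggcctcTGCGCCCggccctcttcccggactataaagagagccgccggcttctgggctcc
This short motif was held by 31.3% of all 9494 promoters, 31.7% of those called higher and 29.9% of those called lower.

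TXNIP, which binds and inhibits thioredoxin and holds back glucose uptake, had 8.48 to 10.40 (median 9.99) in GAD cells, 5.47 to 8.51 (median 7.28) in tBHQ cells and 9.10 to 11.06 (median 10.58) in DMSO_pooled cells. The spread was wide, and the lowest GAD value reached the highest tBHQ value. The means differed by 2.47 ± 0.45 (adjusted p = 3.83e-04), and it was tBHQ that lay below DMSO_pooled (-3.05), with GAD at -0.58. ARRDC4, its arrestin relative, followed at 1.95 ± 0.33 without overlap of the groups, and the other 2 members of that list (median 0.89) were not called.

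**Figure D3:**
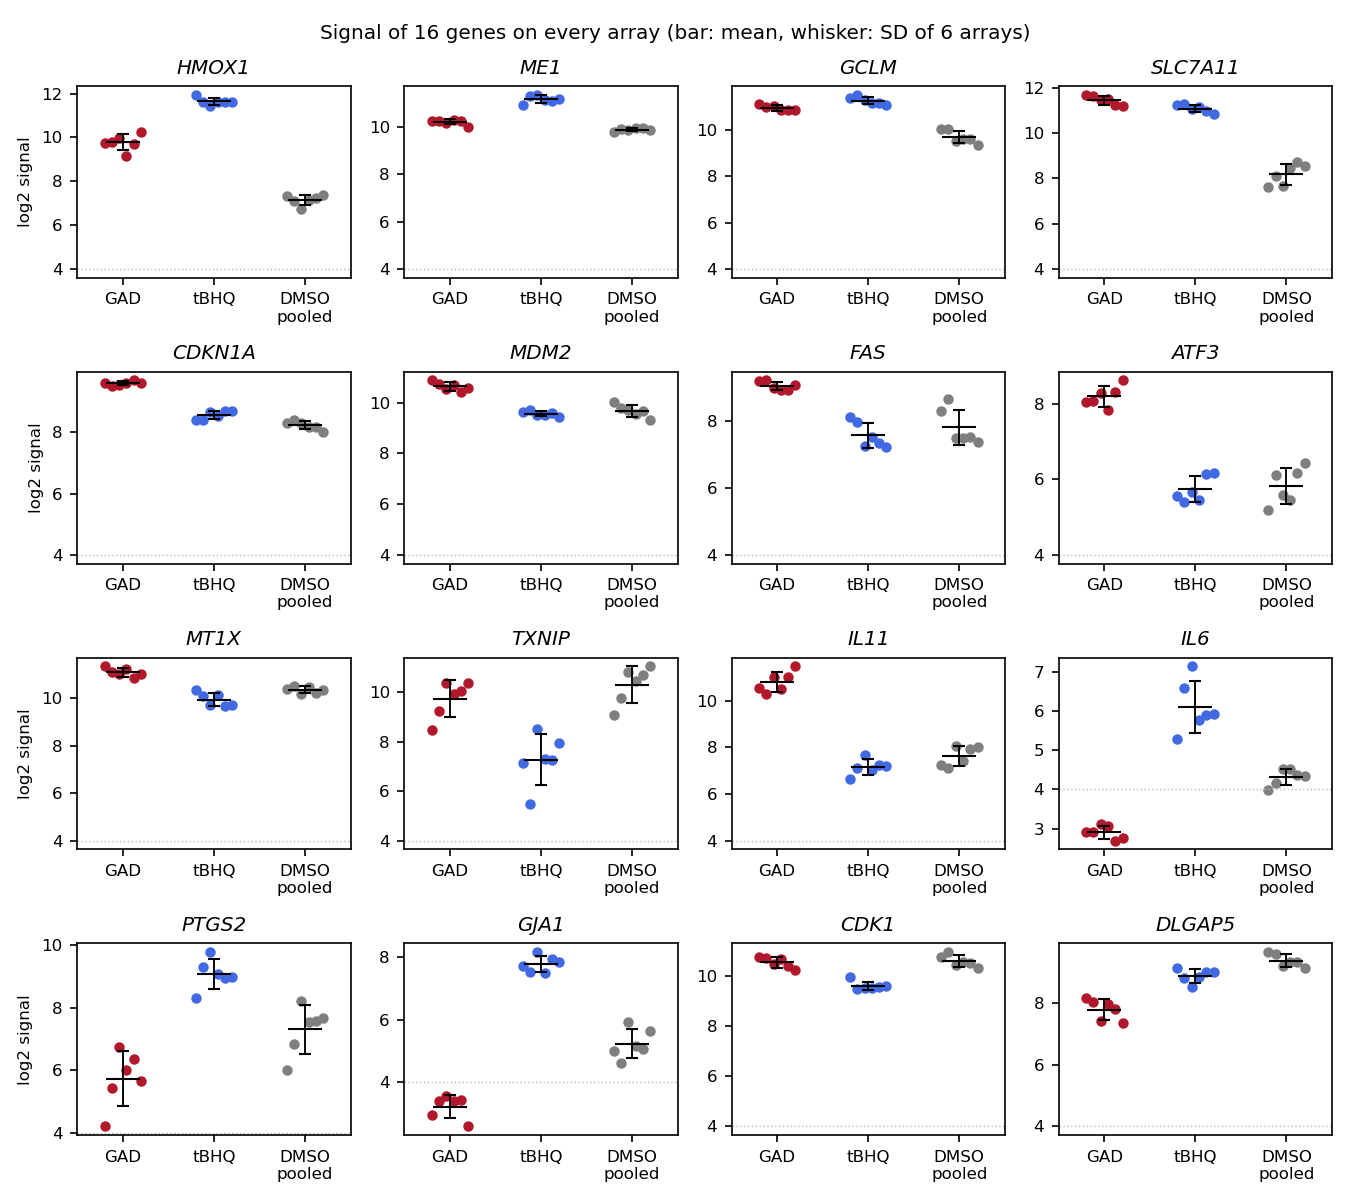
Log2 signal (y axis) of 16 genes on each of the 6 GAD (red), 6 tBHQ (blue) and 6 DMSO_pooled (grey) arrays, with the mean as a bar and the SD as whiskers, and a dotted line at 4 where the axis reaches it. GAD arrays lie above tBHQ arrays for the p53 targets CDKN1A, MDM2 and FAS, for MT1X, IL11 and CDK1, and below them for HMOX1, IL6, PTGS2, GJA1 and DLGAP5, while GCLM and SLC7A11 overlap.

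Genes of the replication and mitotic lists were called mostly in opposite directions. Of 41 genes of DNA replication and the G1/S step 16 were called higher in GAD cells and 2 lower (median 0.47). Of 38 genes of G2 and mitosis 1 was higher and 9 were lower (median -0.28). Every GAD array lay above every tBHQ array for 6 of the 41 replication genes and below for 1. Among the 38 G2/M genes it was 1 above and 4 below. The shares of all genes were 18.8% above and 19.0% below, so full separation was no more frequent in these lists. Over all tested genes 10.2% were called higher and 15.6% lower. With equal medians over the genes 2 G2/M genes were higher and 6 lower (median -0.13). In the replication list 21 were then higher and 1 lower (median 0.62). Against DMSO_pooled the replication median was -0.12 in GAD and -0.51 in tBHQ, with 3 genes higher and 6 lower in GAD and 1 higher and 14 lower in tBHQ. The G2/M median was -0.72 in GAD and -0.43 in tBHQ, with none higher and 26 lower in GAD and none higher and 10 lower in tBHQ. In bulk RNA, fewer cells in a phase and less RNA per cell cannot be told apart. For several replication genes the replicates numbered 1 and 2 were the high ones. CDC6, a replication licensing factor, had 7.94 and 7.92 in GAD replicates 1 and 2 and 7.13 to 7.80 in the other 4. In tBHQ cells it had 7.65 and 7.41 in replicates 1 and 2 and 5.82 to 6.29 in the other 4, and in DMSO_pooled cells 8.43 and 7.95 in replicates 1 and 2 and 6.71 to 7.27 in the other 4. Arrays of the same number deviated together, and with the number as a block no named call was lost.

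CCNE2, the cyclin that starts replication, had 7.92 to 8.43 (median 8.22) in GAD cells, 4.99 to 7.67 (median 6.24) in tBHQ cells and 6.62 to 8.49 (median 7.21) in DMSO_pooled cells. GAD arrays were tight at the upper end and tBHQ arrays spread over a wide range below them (difference 1.88 ± 0.40, adjusted p = 0.00111). MCM10, a replication initiator, differed by 1.26 ± 0.29, CDC6 by 1.05 ± 0.30, the licensing factor CDT1 by 0.95 ± 0.15 and ORC6, of the origin recognition complex, by 0.90 ± 0.19. MCM6, a subunit of the replicative helicase, differed by only 0.05 ± 0.10 and was below DMSO_pooled in both, while MCM7 of the same helicase was one of the 2 genes called lower (-0.86 ± 0.11). In homologous recombination and Fanconi repair 5 of 13 genes were higher and none lower (median 0.56): RAD51AP1 (1.26 ± 0.19), BRCA1 (1.07 ± 0.17), EXO1 (0.91 ± 0.27), FANCI (0.79 ± 0.18) and RAD54L (0.66 ± 0.13). Without tBHQ replicate 1 the count was 8, and without tBHQ replicate 3 RAD54L was at 0.56, under 1.5-fold. In base and nucleotide excision repair (median -0.02) 2 of 20 genes were higher, ERCC3 (0.84 ± 0.07) and TDG (0.70 ± 0.13), and 2 lower, NTHL1 (-1.03 ± 0.12) and ERCC1 (-0.79 ± 0.09). These counts were not above the shares of all tested genes, 10.2% higher and 15.6% lower. For ERCC1, 1 of 3 probe sets went the other way (0.56, adjusted p = 2.3e-05). Among 14 histone genes (median 0.15) H2BC21 (1.74 ± 0.14) and H1-10 (0.65 ± 0.12) were higher and none lower, H1-10 losing the call without tBHQ replicate 1 (0.58).

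CDK1, the kinase that drives mitosis, was the 1 gene of the G2/M list called higher in GAD cells, with 10.23 to 10.76 (median 10.55) in GAD cells, 9.48 to 9.94 (median 9.53) in tBHQ cells and 10.30 to 10.94 (median 10.54) in DMSO_pooled cells. GAD overlapped DMSO_pooled and tBHQ lay below both (difference 0.94 ± 0.11, adjusted p = 6.08e-06). DLGAP5, a spindle protein, had 7.37 to 8.16 (median 7.88) in GAD cells, 8.51 to 9.15 (median 8.93) in tBHQ cells and 9.16 to 9.67 (median 9.34) in DMSO_pooled cells, with GAD lowest and no overlap between GAD and tBHQ (difference -1.10 ± 0.15, adjusted p = 3.09e-05). CENPA, the centromere histone, differed by -1.47 ± 0.26, the phosphatase CDC25B by -1.02 ± 0.12 and CKAP2L by -1.01 ± 0.16. CCNB1, the partner of CDK1, differed by -0.71 ± 0.21 with overlap, and by -0.56 with equal medians over the genes, under 1.5-fold. MKI67 (-0.11 ± 0.15) and TOP2A (-0.23 ± 0.17), both proliferation markers, were below DMSO_pooled in both treatments and were not called in the direct comparison. The promoters of CDK1 and DLGAP5 are shown because these genes differed in opposite directions while both hold the letters TTTGAA. These letters spell the cell cycle homology region CHR, through which the DREAM complex acts, and a match in them is not a bound site. The windows are chr10:60778081-60778330, plus strand, and chr14:55191586-55191835, minus strand, with matches on either strand in capitals.
CDK1: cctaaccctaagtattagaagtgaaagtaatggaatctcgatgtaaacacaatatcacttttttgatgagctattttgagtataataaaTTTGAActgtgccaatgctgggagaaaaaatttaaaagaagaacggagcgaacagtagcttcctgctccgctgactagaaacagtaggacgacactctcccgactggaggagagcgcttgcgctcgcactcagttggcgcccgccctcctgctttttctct
DLGAP5: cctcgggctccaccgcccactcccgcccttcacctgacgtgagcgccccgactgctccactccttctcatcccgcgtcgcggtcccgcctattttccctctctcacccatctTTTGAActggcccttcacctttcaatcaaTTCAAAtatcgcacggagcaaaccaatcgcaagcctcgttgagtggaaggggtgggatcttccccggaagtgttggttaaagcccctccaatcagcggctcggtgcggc
The match begins at position -161 in CDK1 and at positions -138 and -109 in DLGAP5. Of the G2/M promoters 22 of 33 held it (66.7%), against 9.81% of all 9494, 11.0% of those called higher in GAD and 10.1% of those called lower. The E2F motif TTTCCCGC was held by 11 of 37 replication promoters (29.7%), against 2.73% of all.

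Of 13 inflammatory genes of the NF-kB list 5 were called lower in GAD cells and 1 higher (median -0.35), beside 15.6% and 10.2% of all tested genes. IL6 had 2.70 to 3.12 (median 2.92) in GAD cells, 5.29 to 7.14 (median 5.91) in tBHQ cells and 3.98 to 4.53 (median 4.35) in DMSO_pooled cells. GAD arrays were all at background and tBHQ arrays all above DMSO_pooled, at least 4.29-fold apart (adjusted p = 2.57e-07). PTGS2, the inducible cyclooxygenase upstream of PTGES, had 4.21 to 6.72 (median 5.84) in GAD cells, 8.32 to 9.77 (median 9.02) in tBHQ cells and 5.99 to 8.20 (median 7.56) in DMSO_pooled cells, the treated groups lying on either side of the DMSO_pooled median without overlap (difference -3.33 ± 0.36, adjusted p = 4.26e-06). The interleukins IL1A (-2.45 ± 0.32) and IL1B (-2.34 ± 0.59) and TNFAIP3 (-1.88 ± 0.23), which ends NF-kB signalling, were lower too. IL11 was the member that was higher. CXCL8, a neutrophil chemokine, had 9.09 to 10.63 (median 10.22) in GAD cells, 9.71 to 10.52 (median 10.10) in tBHQ cells and 8.15 to 9.39 (median 8.68) in DMSO_pooled cells, so that both treatments lay above most DMSO_pooled arrays and did not differ by the test (-0.01 ± 0.23, adjusted p = 0.986).

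The TGF-beta and BMP list had the lowest median of all, -0.78, with 7 of 12 genes lower in GAD cells and 1 higher. For this list and the matrix list below, the shares of all tested genes are 15.6% lower and 10.2% higher. TGFB2, a ligand, averaged 5.55 ± 0.67 in GAD cells, 8.36 ± 0.55 in tBHQ cells and 9.14 ± 0.51 in DMSO_pooled cells and differed by -2.81 ± 0.31, although 1 of its 4 probe sets differed by -0.31. The inhibitory SMAD6 was at least 3.48-fold lower, the ligand subunit INHBA differed by -1.78 ± 0.29, the decoy receptor BAMBI by -1.10 ± 0.14 and the receptor TGFBR2 by -1.09 ± 0.14. SKIL, a repressor of the pathway, was the 1 gene higher (0.70 ± 0.14). Of 26 matrix genes 8 were lower and 1 higher (median -0.41), and 4 were lower with equal medians over the genes. LOX, which crosslinks collagen, had 7.97 to 8.76 (median 8.44) in GAD cells, 9.82 to 10.31 (median 10.04) in tBHQ cells and 9.49 to 10.34 (median 10.08) in DMSO_pooled cells. GAD arrays lay below all others and tBHQ arrays within the DMSO_pooled range (-1.67 ± 0.13, adjusted p = 2.60e-07). TIMP3, a metalloprotease inhibitor, was at least 2.88-fold lower, and CCN1, a matrix protein induced by YAP, was the gene that was higher (1.22 ± 0.11), with GAD near DMSO_pooled (0.04) and tBHQ below it (-1.18).

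The ERK feedback phosphatases DUSP4 (-1.80 ± 0.16) and DUSP5 (-1.66 ± 0.19) were lower in GAD cells with the receptor signalling inhibitor SPRY2 (-0.75 ± 0.19), 3 of 10 in that list with none higher (median -0.30). Among 15 immediate early genes (median -0.23) EGR1 was higher (1.37 ± 0.36), with overlap of the groups and an adjusted p = 0.0548 in 1 fit of the 7 groups of the set. KLF4 (at least 2.36-fold), FOSL1 (-1.31 ± 0.16) and IER3 (-0.71 ± 0.18) were lower. FOS was not analysed here. In the AHR list of 4 genes 2 were lower, the dioxin receptor AHR itself (-1.32 ± 0.13) and its repressor AHRR (-1.65 ± 0.13). The target CYP1A1 was higher, at 4.15 in GAD cells and 3.43 in tBHQ cells, and lost the call with values under 4 set to 4 (0.15). Of 14 interferon-stimulated genes 6 were lower and none higher (median -0.40), and 3 were lower with values under 4 set to 4. The shares of all tested genes, for each list of this paragraph, were 15.6% lower and 10.2% higher. ISG15 (-0.80 ± 0.11) was below both other groups, and the RNA sensor IFIH1 averaged 4.48 ± 0.18 in GAD cells, 5.38 ± 0.22 in tBHQ cells and 6.55 ± 0.49 in DMSO_pooled cells, with -0.27 when its probe sets were averaged.

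Of 18 genes of cholesterol synthesis 7 were lower in GAD cells and none higher (median -0.36), led by PMVK (-0.96 ± 0.13), SQLE (-0.95 ± 0.12), ACAT2 (-0.85 ± 0.13), INSIG1 (-0.85 ± 0.14) and LSS (-0.84 ± 0.10). INSIG1, which retains the SREBP complex, averaged 8.98 ± 0.30 in GAD cells, 9.83 ± 0.24 in tBHQ cells and 9.86 ± 0.39 in DMSO_pooled cells. LSS differed by -0.41 with its probe sets averaged, and 1 of 4 probe sets of SQLE differed by -0.14. HMGCS1, the first enzyme of the list, differed by -0.42 ± 0.17, under 1.5-fold. Of 17 genes of hypoxia and glycolysis 7 were lower and 1 was higher (median -0.51), and 4 were lower with equal medians over the genes. ALDOC (-1.37 ± 0.28) and ENO2 (-1.04 ± 0.17), both glycolytic enzymes, and VEGFA (-0.77 ± 0.20) were lower, and PFKFB4, which sets the flux of glycolysis, was higher (0.97 ± 0.29) with overlap of the groups. In the BCL2 family BCL2L1 was higher (0.79 ± 0.07) and BCL2A1, which protects cells under NF-kB signalling, was lower (-1.70 ± 0.17), 1 higher and 2 lower of 12 (median -0.06). With its probe sets averaged BCL2L1 was at 0.49. Of 16 autophagy genes (median -0.01) ATG12 was higher (0.77 ± 0.07) and ATG7 (-1.39 ± 0.10) and WIPI1 (-1.01 ± 0.25) were lower, and 1 of 4 probe sets of ATG7 showed no fall (0.05). Of all tested genes 10.2% were called higher and 15.6% lower, and the BCL2 and autophagy counts lay near those shares.

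**Figure D4:**
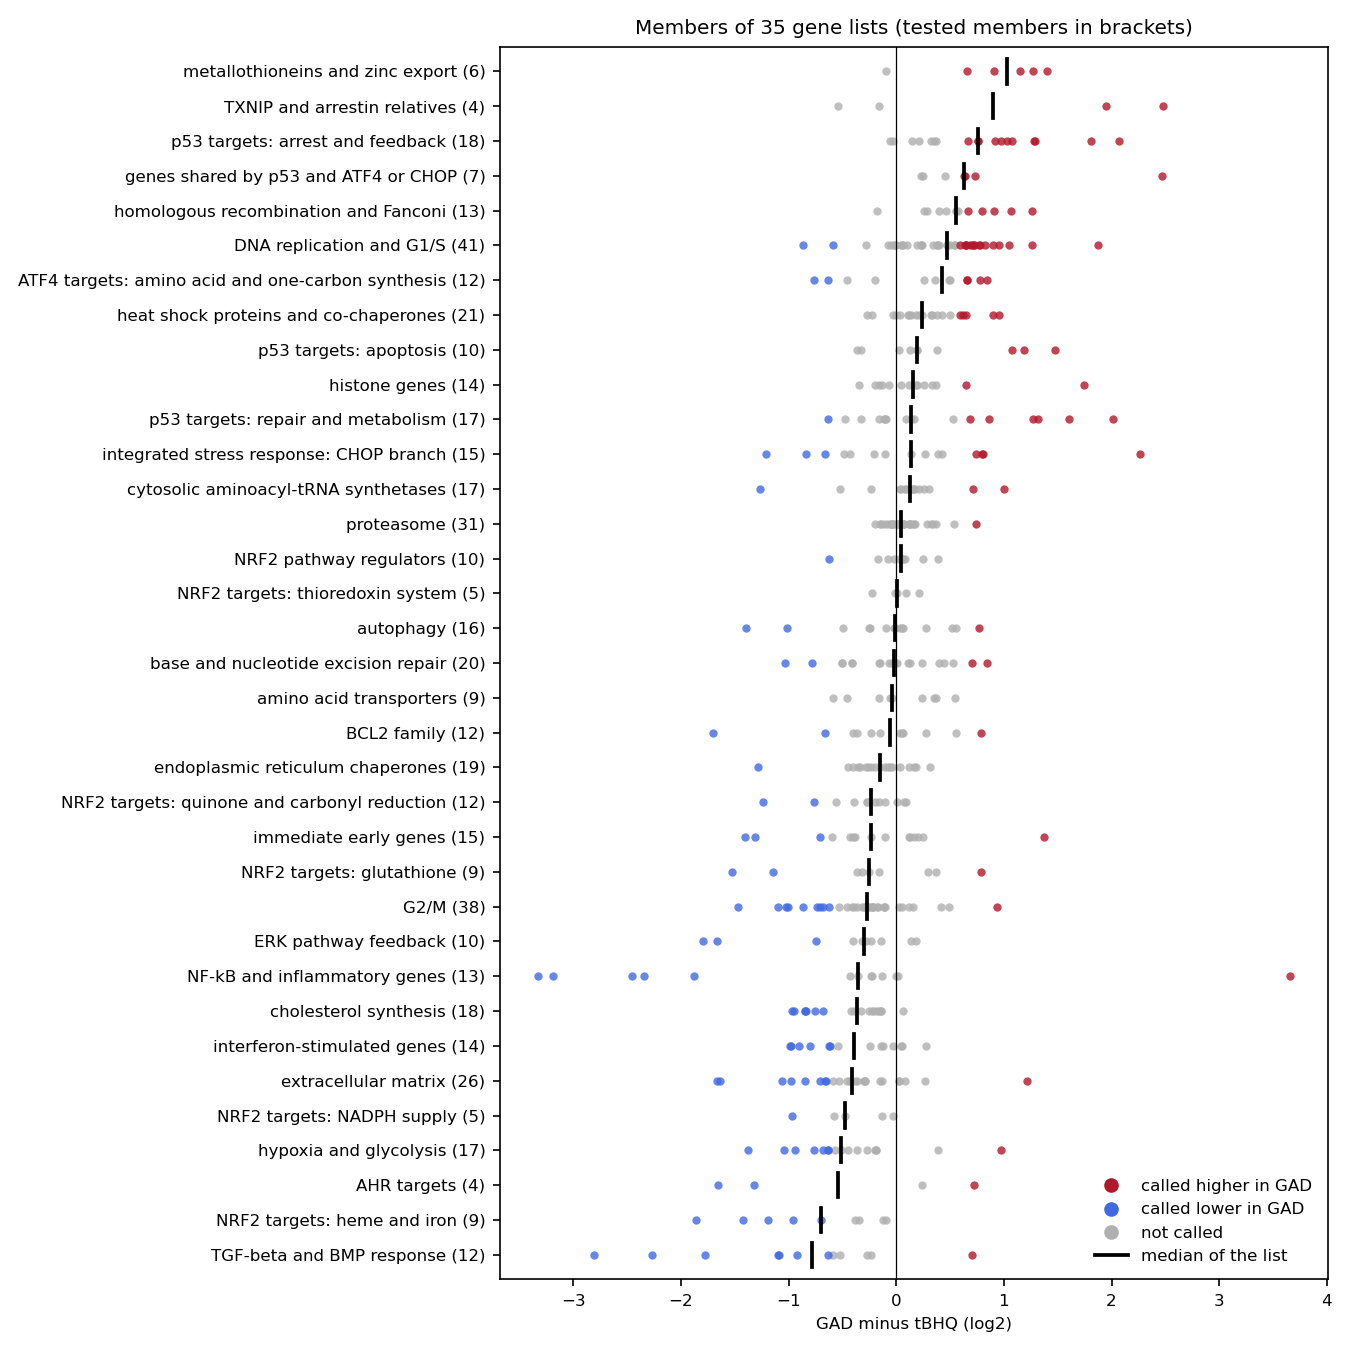
Each row is 1 of 35 gene lists with its number of tested members, each point is 1 member at its GAD minus tBHQ difference (log2, x axis), red where called higher in GAD, blue where called lower and grey otherwise, and the black bar is the list's median. The lists run from a median of 1.03 in metallothioneins at the top to -0.78 in TGF-beta and BMP response at the bottom.

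The share of genes lower in GAD cells was higher among genes that span 100 kb or more of the chromosome than among shorter ones. This pattern and its bins were chosen after the values were seen. Of 11484 genes with a RefSeq span on GRCh38.p14, 11.7% of 2446 genes under 10 kb were called lower, 9.76% of 3226 genes of 10 to 30 kb, 12.5% of 3637 genes of 30 to 100 kb, 28.7% of 1762 genes of 100 to 300 kb and 56.2% of 413 genes of 300 kb or more. The shares called higher ran 11.1%, 12.2%, 11.2%, 4.43% and 4.12% over the same bins, and the median differences 0.02, 0.08, 0.06, -0.22 and -0.73. The bins had like levels in tBHQ cells, with medians of 6.94, 7.34, 7.70, 7.55 and 7.01. Genes of 300 kb or more had a median of -0.78 to -0.63 relative to DMSO_pooled in each of the 6 GAD arrays, and of -0.12 to 0.10 in the 6 tBHQ arrays. All 6 GAD arrays lay below every tBHQ array there, and the tBHQ arrays lay around DMSO_pooled. Genes under 10 kb had medians of 0.01 to 0.05 in GAD arrays and -0.03 to 0.03 in tBHQ arrays. Under the alternatives run, the share called lower among genes of 300 kb or more was 39.2% to 71.9%, each time the highest of the 5 bins.

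Several of the genes named above are among the long ones. The median span was 67.2 kb for genes called lower, 24.7 kb for genes called higher and 30.6 kb for all genes. Of all 11484 genes with a span 2175 spanned 100 kb or more, as did 737 of 1794 called lower and 95 of 1169 called higher. Of the 14 genes with the largest negative differences 8 did, and of the 14 with the largest positive ones 3. TENM4 spans 788 kb, PRKG1 1308 kb, PLCB1 753 kb and BICC1 319 kb. Short genes were found among the lowest too, such as GJA1 with 14.1 kb and PTGES with 14.7 kb, and HMOX1 spans 13.1 kb. The ACTB 3′ to 5′ difference was higher in GAD arrays as a group. In GAD replicates 1 to 6 it was 1.31, 1.41, 1.64, 1.23, 1.17 and 1.36. Genes of 300 kb or more had medians of -0.75, -0.63, -0.66, -0.70, -0.67 and -0.78 on the same arrays. The part of RNA quality in the lower level of long genes was not tested.

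**Figure D5:**
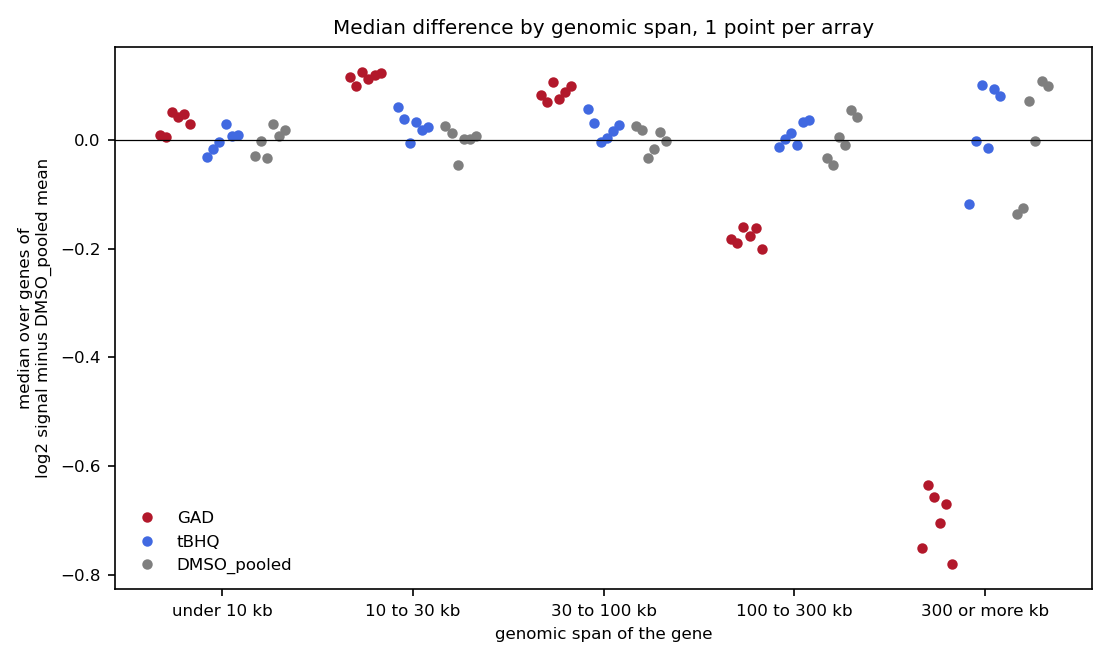
Each point is 1 array, placed by the median over genes of its log2 signal minus the mean of the DMSO_pooled arrays (y axis; for a DMSO_pooled array, minus the mean of the other 5), in 5 bins of genomic span (x axis, kb), for GAD (red), tBHQ (blue) and DMSO_pooled (grey). The 6 GAD arrays fall below the other groups only in the bins of 100 to 300 kb and of 300 kb or more.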

How the data were processed

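RNA of 101 HT1080 samples was measured on Affymetrix HT HG-U133+ PM arrays. The authors deposited log2 signals of 54715 probe sets; GCRMA and Partek are named per the submitters' processing notes, with no versions. The 6 GAD, 6 tBHQ and 6 DMSO_pooled arrays are columns of 1 matrix, and groups were taken from titles. Each gene was read from its brightest probe set (40914 probe sets name 1 gene, 864 several and 12835 none), and 19774 genes were left, of which 11496 had a mean of 4 or more in at least 1 of 17 groups. GAD minus tBHQ was fitted in limma 3.58.1 (R 4.3.3) on the 12 arrays, with empirical Bayes moderation and Benjamini-Hochberg adjustment over all genes tested, and a call needs an adjusted p under 0.05 and 1.5-fold. Each difference is given ± its SE and each mean ± its SD. Same-numbered GAD and tBHQ arrays deviated together (r of 0.62, 0.38, 0.35, 0.33, 0.45 and 0.37, against a highest r with another number of 0.12 to 0.46). Every one passed 0.1, so the numbers were taken as pairs, from the data alone, in the alternative with the number as a block. The main fit has no such term, so its SEs and adjusted p-values are unpaired. GAD replicate 5 correlated more with another number (0.462, against 0.454). On simulated data the test recovered 74.6% of 67 genes changed 1.56-fold, 97% of 67 changed 2-fold and 100% of 66 changed 4-fold, with 2 false calls. The simulated noise was normal and independent between genes and arrays, without the shared deviation of same-numbered arrays. Only these genes of the 11496 were changed, so the 2 false calls give no error rate for the real arrays. The number of arrays limits the precision. Genes and lists were chosen with earlier results of these data known. Genes named are the 14 with the largest difference each way among called genes without overlap of the groups, a fixed panel and up to 5 called genes of each list; DRAM1, DDIT4, MCM7, SKIL, SLC30A1 and TNFAIP3 lie outside that rule and were named after their values were seen. Promoter sequences and spans are RefSeq's, on GRCh38.p14. Alternatives were other scalings, filters, probe set rules, fold minimums, larger fits, the number as a block and each array left out.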

Additional observations from a re-analysis of the deposited data

Results flagged for a closer look

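In 26 of 362 groups of 6 arrays examined (7.18%), 1 array lay far from the other 5 by Dixon's criterion, and chance alone marks about 1 in 20. Among the 15 tBHQ values marked, 10 were of replicate 1. There CDK1 (9.94), CYP1A1 (4.34), MYCT1 (4.20) and LURAP1L-AS1 (3.60) were above the other 5 tBHQ arrays. GCLC (9.59), IL1B (10.05), PTGES (6.31), TENM4 (6.82), TGFBR2 (10.44) and VEGFA (10.83) were below them on that array. PTGES ranged over 9.08 to 10.02 on the other 5 tBHQ arrays, and MYCT1 over 2.70 to 2.86. In GAD replicate 1 IL1B was also low (6.27, against 9.11 to 10.35 on the other 5 arrays), with ALDOC (5.90) and DDB2 (8.03), while HMGCS1 (7.47) and TDG (8.99) were high. So IL1B was low in replicate 1 of both treatments.

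In GAD replicate 2 IFITM1 (7.49) was low, and SNAP25 (4.58) and TIMP3 (4.91) were high. BAMBI was low in replicate 4 of both treatments, at 4.73 in GAD and 5.76 in tBHQ. ACER2 (5.77) and ERCC3 (8.38) were high in GAD replicate 6. TGFBR3 (8.20) was high in tBHQ replicate 2, FOSL1 (8.08) low in tBHQ replicate 3 and ATG7 (7.48) high in tBHQ replicate 6. The ACTB 3′ minus 5′ difference of tBHQ replicate 4 was 0.752, against 1.06 to 1.22 on the other 5 tBHQ arrays.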

How the results depend on the processing

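Without a fold minimum 7018 genes were called (3519 higher in GAD, 3499 lower), at 2-fold 1145 (299 higher, 846 lower), and over single probe sets 5789 (2572 higher, 3217 lower). With equal medians over the genes, an alternative added after the data were seen, 1906 were higher and 1363 lower, and after quantile normalization 1457 were higher and 1545 lower. With 1 array left out 2868 to 3165 genes were called, 1106 to 1290 higher and 1740 to 1875 lower, the most without tBHQ replicate 1. Under the replicate block, which takes the array number as a term, 1176 were higher and 1802 lower (2978), and no named call was lost. GAD against DMSO_pooled gave 2902 to 3155 calls and tBHQ against DMSO_pooled 1092 to 1243 with 1 array left out. Of 175 named genes 151 were called. Of these 67 lost the call under at least 1 alternative, 59 of them at 2-fold, and 12 when 1 array was left out. The least favourable single probe set turned the direction of 5 genes, to 0.16 in ABCC3, 0.80 in AKR1C1, 0.053 in ATG7, -0.084 in CEBPG and 0.56 in ERCC1, and the cause was not tested. The count of higher recombination and Fanconi genes was 9 under quantile normalization and 9 with equal medians over the genes, and that of lower interferon genes 3 with probe sets averaged. With equal medians over the genes the medians of the autophagy, excision repair, BCL2 and amino acid transporter lists turned to 0.13, 0.12, 0.09 and 0.10. The number of arrays and signal near background limit what can be told of genes under 4, and only probe sets that name 1 gene were read.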
